A study of Mus musculus with 2 samples.

Results

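The 6 genes described here, Pigr, Igj, Lcn2, Pglyrp1, Cd14 and Saa3, encode proteins of mucosal antibody transport and of the response to bacteria. They were chosen by symbol, with their values in these libraries already known, from 22072 gene symbols listed in both tables. Each is listed as 1 RefSeq transcript whose estimate succeeded in both libraries, and all 6 passed the filter on low values (FPKM of 1 or more in either library), as did 9945 symbols in all. Saa3 passed it only through the control library, so with this filter its difference could lie only below 0. FPKM scales fragments by transcript length and by library depth, so levels of genes of unlike length can be compared.

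The data are RNA-seq of sorted lung cells from adult mice. Every mouse ate food with doxycycline at 625 mg/kg for 16 days, and every mouse carried tetOCre with floxed alleles of both kinase genes (Mst1-flx/flx;Mst2-flx/flx). The control group had no transactivator, so its floxed alleles had no driver of Cre. The other group, labelled Mst1/2 D/D or CKO, also carried Scgb1a1-rtTA, in which the promoter of a club cell secretory gene drives the doxycycline-dependent transactivator. Effects of the transactivator, of active Cre and of the deletion cannot be told apart in this design. The sort kept lineage-negative, CD326-positive cells with intermediate CD24, a gate meant to enrich secretory airway cells without motile cilia. RNA of 4 mice was pooled into 1 library per group, so no value has a replicate error, no p-value is given, and no difference below has a replicate check.

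The listed transcripts took about 8770000 reads in the control library, here called the control pool, and 8340000 in the other. The targeted genes did not verify the label at the level of the whole transcript. Stk4, which encodes Mst1, had an FPKM of 5.38 in the control pool against 4.71 in the other, and Stk3, which encodes Mst2, had 7.28 and 7.09. The labels do not state which exons Cre removes, so these values do not settle whether deletion occurred. The second library is called the pool labelled Mst1/2-deleted. The sorted antigen genes were present, with Epcam (CD326) at FPKM of 28.2 and 31.0 and Cd24a at 127 and 116. The sort also held alveolar cells, since the surfactant gene Sftpc, at 7888 and 10270, stood beside the club cell cytochrome gene Cyp2f2, at 4694 and 5305.

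Mucosal surfaces are defended by antibodies that plasma cells release below the epithelium and that epithelial cells carry across. The J chain joins IgA into dimers and IgM into pentamers, and the polymeric immunoglobulin receptor on the basolateral membrane binds such J chain-bearing antibody, moves it through the cell and releases it at the lumen with a piece of itself attached. Airway epithelium and recruited neutrophils add proteins that act on bacteria directly, among them lipocalin 2, which captures iron-carrying siderophores, and peptidoglycan recognition protein 1, which binds bacterial cell walls. CD14 delivers lipopolysaccharide to the Toll-like receptor Tlr4, and serum amyloid A proteins are acute phase apolipoproteins, of which Saa3 is made in many mouse tissues outside the liver.

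Of the 6 genes, 5 were lower in the pool labelled Mst1/2-deleted and 1, Igj, was higher. The receptor gene Pigr was 2.72-fold lower, and Pglyrp1 and Cd14 were lower by 2.85-fold and 2.40-fold. Lcn2, the most abundant of the 6, was 1.56-fold lower, and Saa3, at low levels, was 9.65-fold lower. Igj was 9.01-fold higher. In the control pool the order of levels was Lcn2, Pigr, Cd14, Pglyrp1, Saa3 and Igj, and in the pool labelled Mst1/2-deleted Igj moved between Pigr and Cd14 while the others kept their order. Without replicates, neighbours in this order cannot be set against a spread. On the log2(FPKM + 1) scale, which damps the differences of low genes, 4 of the 6 were at least 2-fold lower and 1 was at least 2-fold higher. Saa3, among those 4, passed the filter only through the control pool. Over all 9945 measured genes, 0.975% were at least 2-fold lower and 0.754% at least 2-fold higher by the same measure. These shares, from 97 and 75 genes, include genes whose estimate failed. Without failed estimates and transcripts under 300 bases, 60 and 48 genes were that far apart. Because the 6 genes were chosen with these values known, the counts describe the choice and support nothing further.

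**Figure D1:**
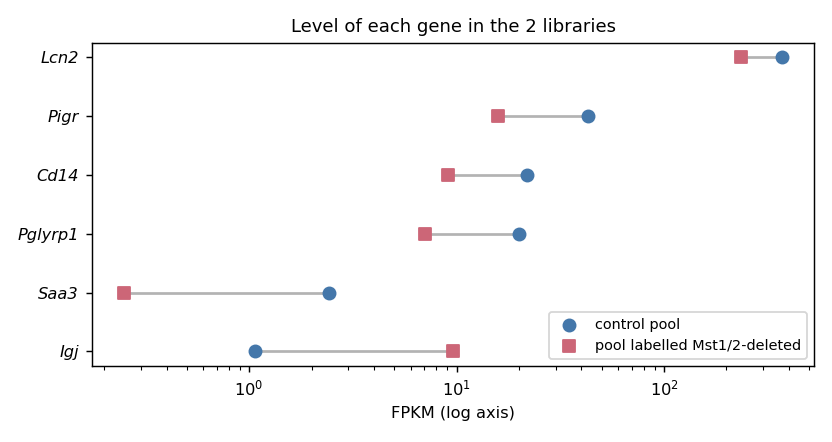
FPKM (log axis) of each of the 6 genes in the control pool (circles) and in the pool labelled Mst1/2-deleted (squares), with 1 library per genotype and no error bar. Lcn2 is highest in both libraries, 5 genes sit lower in the pool labelled Mst1/2-deleted, and Igj sits higher, at 9.58 against 1.06.

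Sequences before the transcript start are shown for Pigr and Igj, the antibody transport pair that differed in opposite directions, and for Saa3, the gene with the largest fold decrease. They are the 250 bases upstream of the RefSeq start in build GRCm38.p6, read 5′ to 3′ on the gene's own strand. This build is not the mm9 build of the deposited values. Capitals mark matches to the motifs named after the sequences.
Pigr (chr1:130826434-130826683, plus strand): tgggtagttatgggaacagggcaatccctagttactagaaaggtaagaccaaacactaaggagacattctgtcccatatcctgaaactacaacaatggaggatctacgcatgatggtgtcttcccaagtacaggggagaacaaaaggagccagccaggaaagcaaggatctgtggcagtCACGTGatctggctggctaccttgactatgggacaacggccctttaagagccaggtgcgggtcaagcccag
Igj (chr5:88527898-88528147, minus strand): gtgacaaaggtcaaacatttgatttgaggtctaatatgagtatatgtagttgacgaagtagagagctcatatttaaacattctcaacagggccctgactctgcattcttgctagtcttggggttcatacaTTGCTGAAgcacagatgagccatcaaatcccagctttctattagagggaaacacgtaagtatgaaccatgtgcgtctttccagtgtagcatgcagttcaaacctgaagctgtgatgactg
Saa3 (chr7:46715677-46715926, minus strand): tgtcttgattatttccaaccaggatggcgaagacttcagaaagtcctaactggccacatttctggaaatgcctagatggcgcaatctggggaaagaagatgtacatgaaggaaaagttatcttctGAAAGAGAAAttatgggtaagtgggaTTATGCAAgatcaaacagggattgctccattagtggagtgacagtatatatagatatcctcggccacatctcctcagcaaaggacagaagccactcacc

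A RefSeq promoter entry was matched for 5 of the 6 genes, Cd14 being the one without. Both strands of each window were searched for the kappaB consensus of NF-kB factors, the C/EBP-type sequence TTGCNNAA, an interferon-stimulated response element, the E-box CACGTG, the Tead element GGAATG and TATAAA. The Pigr window held the E-box CACGTG, starting 71 bases before the start site; 6.02% of 32817 promoter windows of this length hold it. TTGCNNAA occurred in the windows of Igj, Lcn2 and Saa3, and in 9.57% of all windows. The Saa3 window also held the interferon element, found in 2.97% of windows and not overlapping its other match. The Pglyrp1 window held the only kappaB match of the 5, GGAAAGTCCC, against 7.25% of all windows. GGAATG and TATAAA, found in 12.6% and 12.4% of windows, had no match in the 5. TTGCNNAA occurred both in the gene that was higher and in genes that were lower. A match is only a run of letters, and binding was not measured.

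The antibody transport genes are described first. Pigr (NM_011082, chr1:132723261-132748826, mm9, transcript of 3849 bases) had an FPKM of 42.9 in the control pool and 15.8 in the pool labelled Mst1/2-deleted, from about 4476 and 1472 reads. Its ratio was 0.368, with a 95% counting interval of 0.346 to 0.390. The intervals are exact binomial intervals from approximate reads, they cover counting error only, and amplified reads are not independent molecules. By level, Pigr went from rank 382 among all symbols in the control pool to rank 1193 in the other. In bulk RNA of sorted cells, fewer cells of a type and less RNA per cell cannot be told apart, which holds for every difference given here.

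Igj (NM_152839, chr5:88948834-88956922, 2102 bases), now named Jchain, had an FPKM of 1.06 in the control pool and 9.58 in the other, from about 60.6 and 488 reads. The ratio was 9.01 (6.84 to 11.9). Only 7 of the 9945 measured genes had a higher difference on the log2(FPKM + 1) scale. They include Irak1, whose estimate failed in the control pool. Pigr thus stood 40.4-fold above Igj in the control pool and 1.65-fold above it in the pool labelled Mst1/2-deleted. The receptor and the chain that its cargo carries differed in opposite directions, and their levels lay close together in the second library.

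J chain is best known from plasma cells, and genes of that lineage are given beside Igj. In this and the later lists, the signs and the 1.5-fold counts are those of the difference in log2(FPKM + 1) and not of the FPKM ratio, which is farther from 1 for genes at low levels. Over all measured genes, 63.2% lay above 0 and 36.8% below, 2.59% were at least 1.5-fold lower and 3.02% at least 1.5-fold higher. Of 15 plasma and B cell genes listed, 13 were in the tables and 6 were measured, 5 with a log2 difference above 0 and 1 below, with 0 past 1.5-fold on that log2 scale. Their summed FPKM was 65.1 in the control pool and 67.0 in the other, most of it from Sdc1, at 24.7 and 24.9, and Xbp1, at 34.9 and 33.9, which epithelial cells also express. Tnfrsf17, the plasma cell receptor BCMA, had an FPKM of 0.0389 in the control pool and was listed at 0 in the other.
Other genes of the list were higher at low levels. Cd79a, a signalling chain of the B cell receptor, had FPKM of 0.527 against 1.06, with a ratio of 2.02 (1.11 to 3.71), on about 18.9 and 34.2 reads. It passed the filter only through the pool labelled Mst1/2-deleted, so it could lie only above 0. Its partner Cd79b had 1.93 and 2.73, and the B cell coactivator Pou2af1 had 1.08 and 1.65. Derl3, an endoplasmic reticulum factor of secretory cells, had 0.387 and 0.878. In the pool labelled Mst1/2-deleted, Igj, at 9.58, stood below Sdc1 and Xbp1 and above Cd79a, Cd79b, Pou2af1 and Derl3. Levels of different genes do not show which cells a transcript came from, here and in the later lists. Ighm and Igkc, constant genes of immunoglobulin heavy and light chains, were listed but had no entry under those symbols, so they give no values here. The part of B lineage cells in the Igj difference was not tested.

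The measured genes of antibody uptake and transcytosis other than Pigr differed little on the log2(FPKM + 1) scale. Of 14 listed genes, 10 were measured, 5 above 0 and 5 below, and none was 1.5-fold apart. The median log2 difference of the list was -0.0048, beside 0.07 over all measured genes. Fcgrt, the neonatal Fc receptor that carries IgG, had FPKM of 3.11 and 2.10, and its partner B2m, the most abundant gene of the list, had 375 and 350. Myo5b, a motor of recycling endosomes, had 5.56 and 7.88. Vps35, of the retromer, had 7.45 and 8.73, and Yes1, a kinase tied to receptor transcytosis, had 4.44 and 5.01. Below an FPKM of 1, Rab17 had 0.178 and 0.718, a ratio of 4.03 (1.88 to 10.6) on about 7.53 and 29.6 reads. The ratio intervals of Fcamr, Faim3 and Rab3b, also below 1 FPKM, included 1. Pigr itself lay outside the range of this list, whose lowest log2 difference was -0.41 against -1.39 for Pigr.

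Of the antibacterial effectors, Lcn2 (NM_008491, chr2:32240157-32243259, 853 bases) had an FPKM of 369 in the control pool and 236 in the pool labelled Mst1/2-deleted. It rested on about 8518 and 4871 reads, and the ratio was 0.639 (0.617 to 0.662). Lcn2 ranked 35 by level in the control pool and 49 in the other, and it made up 80.7% and 84.9% of the summed FPKM of the 6 genes. Its level was 8.59-fold that of Pigr in the control pool and 14.9-fold in the other, since Pigr differed more. The counting interval of the Lcn2 ratio overlapped that of none of the other 5 genes.

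Pglyrp1 (NM_009402, chr7:19470039-19475787, 681 bases) had an FPKM of 20.1 and 7.05, from about 370 and 116 reads. Its ratio was 0.351 (0.282 to 0.433), and the interval overlapped that of Pigr. The 2 genes kept nearly the same proportion, Pigr being 2.14-fold above Pglyrp1 in the control pool and 2.24-fold above it in the other. The relatives of Pglyrp1 were near absence, with Pglyrp2 at FPKM of 0.159 and 0.141, Pglyrp3 at 0.0293 and listed at 0, and Pglyrp4 listed at 0 in both. The intracellular peptidoglycan sensor Nod1 had 2.87 and 1.74, a ratio of 0.607 (0.503 to 0.727), and Ripk2, the kinase that acts after it, had 2.16 and 1.52. These were the 2 measured genes of 6 in the peptidoglycan list, both below 0 and neither 1.5-fold apart on the log2(FPKM + 1) scale.

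In the list of siderophore and lactoferrin iron binding, 5 of 9 genes were measured, 3 above 0 and 2 below, with 1 at least 1.5-fold lower and a median log2 difference of 0.04. That gene was Ltf, which encodes the iron-binding milk and granule protein lactoferrin, at FPKM of 8.31 and 4.16 (ratio 0.501, 0.434 to 0.579). Trf, the transferrin gene, had 77.5 and 53.8. Slc22a17, reported as a receptor for lipocalin 2, had 2.08 and 2.93, and Lrp2, the megalin gene, had 9.98 and 12.1. Hp, which encodes haptoglobin and was the most abundant of the list, had 400.3 and 410.5.

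The wider set of airway antibacterial genes held members with large differences beside many with small ones. Of 26 listed genes, 25 were in the tables and 13 were measured, 8 above 0 and 5 below, a split close to that of all measured genes, with 1 at least 1.5-fold higher, 3 lower and a median log2 difference of 0.20. Chi3l3, a chitinase-like protein of macrophages whose reads may be shared with a close copy, had FPKM of 23.97 and 4.51. Plunc, a secreted airway protein that limits bacterial surface growth, had 177 against 49.97, and Reg3g, a lectin that binds peptidoglycan, had 39.0 and 19.1. In the other direction stood Rnase4, a secreted ribonuclease gene, at 98.5 and 154. Lyz2, a lysozyme gene that has a near-identical neighbour in Lyz1, was the most abundant, at 6170 and 7257. Lysozyme was thus slightly higher in the library in which Lcn2 and Pglyrp1 were lower.

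**Figure D2:**
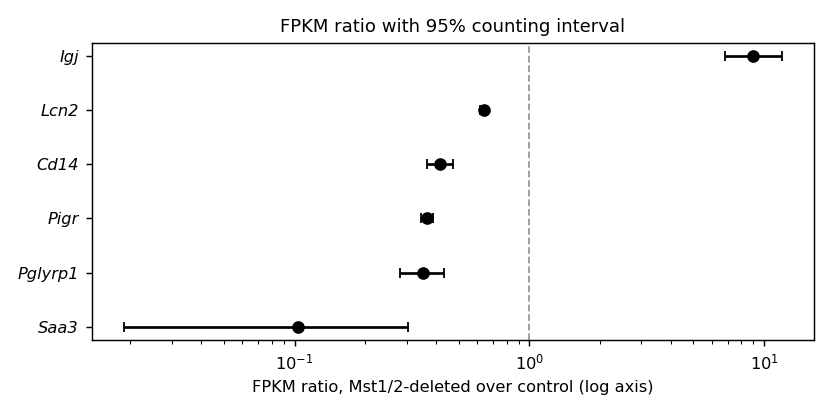
FPKM ratio of the pool labelled Mst1/2-deleted over the control pool (log axis) for each of the 6 genes, with bars for the 95% counting interval only. The interval of Lcn2 (0.617 to 0.662) stands apart from the others, those of Pigr, Pglyrp1 and Cd14 overlap, and that of Saa3 is wide, from 0.0189 to 0.304.

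Cd14 and Saa3 belong to the sensing and acute phase arm. Cd14 (NM_009841, chr18:36884721-36886308, 1497 bases) had an FPKM of 21.9 in the control pool and 9.13 in the other, from about 887 and 331 reads. The ratio was 0.417 (0.367 to 0.474), and the interval overlapped those of Pigr and Pglyrp1. Its level was 1.09-fold that of Pglyrp1 in the control pool and 1.29-fold in the other.

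The genes of proteins that act with Cd14 differed less. Tlr4, the signalling receptor, had FPKM of 4.50 and 4.22, with a ratio of 0.938 (0.819 to 1.08). Ly96, which encodes the lipid-binding partner MD-2, had 3.36 and 3.95, and Lbp, the lipopolysaccharide binding protein and the most abundant gene of the list, had 14.0 and 15.1. Cd14 was therefore the only gene among these 4 of the receptor complex whose ratio interval excluded 1.
Of 16 genes in this list, 10 were measured with a successful estimate, 6 above 0 and 4 below, none 1.5-fold apart on the log2(FPKM + 1) scale, with a median log2 difference of 0.11. Tlr2, which also uses Cd14 and lies low, had 1.15 and 0.548, a ratio of 0.478 (0.318 to 0.705). It passed the filter only through the control pool, so it could lie only below 0. The adaptor Ticam1 had 3.59 and 2.53 and the adaptor Myd88 5.26 and 6.32. Irak1 was listed at 0 in the control pool because its estimate failed there, so it was left out.

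Saa3 (NM_011315, chr7:53967368-53971046, 531 bases) had an FPKM of 2.42 in the control pool and 0.251 in the other. These values rest on about 34.8 and 3.22 reads, so the ratio of 0.104 has an interval from 0.0189 to 0.304. The size of the Saa3 difference is therefore poorly fixed, although its interval lies below that of Cd14. The other serum amyloid genes were almost unread, with Saa2 listed at 0 in both libraries, Saa1 under 0.01 in both and Saa4 at 0.244 and 0.289. Of 13 genes in the acute phase list, 3 were measured. Lrg1, a secreted glycoprotein gene, was the highest of them at FPKM of 49.0 and 36.6, Itih4 had 12.8 and 13.9, and the lipoprotein receptor gene Scarb1 had 1.62 and 2.22. None of the 3 was 1.5-fold apart on the log2(FPKM + 1) scale.

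NF-kB, C/EBP factors and IL-17 are known inducers of Lcn2, Saa3 and Pigr in epithelium, and their response genes are given for comparison. Of 24 genes, 21 were measured, 12 above 0 and 9 below, with 1 past 1.5-fold upward, 3 downward (again in log2(FPKM + 1)) and a median log2 difference of 0.04. Il6, among those above 0, passed the filter only through the pool labelled Mst1/2-deleted, at 0.762 and 1.18. The highest in level was C3, the central complement component, at FPKM of 95.7 against 37.7 (ratio 0.394, 0.381 to 0.407). The neutrophil chemokine gene Cxcl5 had 3.50 and 1.21, and Il1b, encoding interleukin 1 beta, had 3.27 and 1.24. Icam1, an adhesion molecule gene, was the one that was higher, at 27.4 and 47.96.
Genes of feedback inhibitors in this list differed in both directions or little. Nfkbia had FPKM of 9.60 and 9.17, and Tnfaip3 had 4.59 and 4.77, with ratio intervals that included 1. Zc3h12a, which encodes an RNase that degrades inflammatory transcripts, had 1.83 and 1.01 (ratio 0.551, 0.403 to 0.736), and Tnip1, which encodes a partner of the Tnfaip3 protein, had 2.31 and 3.64 (ratio 1.58, 1.30 to 1.93). Nfkbiz, a coactivator of Lcn2 transcription, had 7.57 and 6.46, and Cebpb had 7.33 and 5.10. Il17ra, a chain of the IL-17 receptor, had 4.03 and 2.79. Of the same families, Rela, Nfkb1, Cebpd, Il17rc and Il17re were not lower. Relb, below an FPKM of 1, had 0.626 and 0.504, with a ratio interval that included 1. Rela, an NF-kB gene, had 7.74 and 9.31 (ratio 1.20, 1.07 to 1.35). Nfkb1 had 5.06 and 5.12, Cebpd 5.40 and 5.66, Il17rc 2.39 and 2.61 and Il17re 4.54 and 5.21, with ratio intervals that included 1. Nfkbia, Tnfaip3, Zc3h12a, Tnip1, Nfkbiz, Cebpb, Il17ra, Rela, Relb, Nfkb1, Cebpd, Il17rc and Il17re are named for their roles, after their values were seen.

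**Figure D3:**
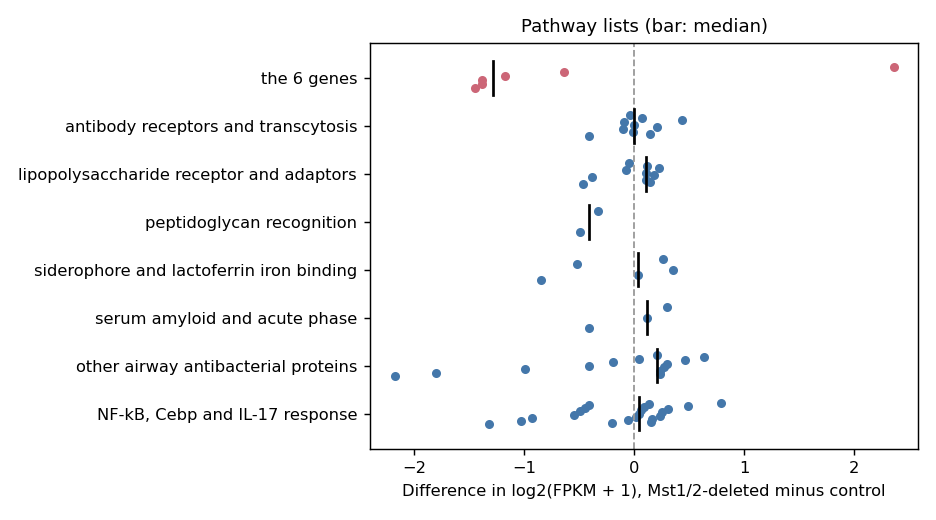
Difference in log2(FPKM + 1), Mst1/2-deleted minus control, of the 6 genes and of the measured genes of 7 pathway lists, with 1 point per gene and a bar at the median. The 6 genes have a median of -1.28 with Igj alone at 2.36, while the antibody transport list centres at -0.0048 and the lipopolysaccharide receptor list at 0.11.

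Markers of other cell types differed between the libraries as well. Macrophages and monocytes express Cd14 and Saa3. Of 18 macrophage and monocyte genes, 10 were measured, 2 above 0 and 8 below, with 7 at least 1.5-fold lower and 1 higher. Of those 7, Tyrobp, Laptm5, Ear2, Coro1a and Ccl17 passed the filter only through the control pool, so they could lie only below 0. The median log2 difference of the list was -1.06 with the filter and -0.63 without it. Their summed FPKM was 54.98 in the control pool and 21.3 in the other. Tyrobp, an adaptor of myeloid receptors, had 3.07 and 0.644. The macrophage receptor Marco had 0.789 and 0.0792, and Emr1, which encodes F4/80, had 0.337 and was listed at 0 in the other. The gene counted as at least 1.5-fold higher was Ly6c2, at 3.67 and 6.83. Csf1r, the macrophage growth factor receptor gene, had 0.984 and 1.80 and was not 1.5-fold apart on the log2(FPKM + 1) scale. Csf1r passed the filter only through the pool labelled Mst1/2-deleted, so it could lie only above 0. In the control pool Cd14, at 21.9, stood above every listed gene of this kind but Chi3l3, at 23.97. The part of these cells in the Cd14 and Saa3 differences was not tested.

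Neutrophil granules contain both lipocalin 2 and peptidoglycan recognition protein 1. Of 15 neutrophil genes, 14 were in the tables and 2 were measured, Ltf and Cxcr2, both below 0 and Ltf at least 1.5-fold lower, and the summed FPKM was 14.4 and 8.31. Ltf, a granule protein gene that is also in the mucous cell list, had FPKM of 8.31 and 4.16. The granule genes Elane, Camp and Mmp8 were listed at 0 in both libraries, and Mpo had 0.016 in the control pool and was listed at 0 in the other. Below an FPKM of 1, Csf3r, the receptor of the neutrophil growth factor, had 0.805 and 0.358 (ratio 0.445, 0.278 to 0.692). S100a8 had 0.690 and 0.211, Retnlg 0.749 and 0.275, Fpr1 0.373 and 0.0299 and Itgam 0.172 and 0.0831, while S100a9 had 0.693 and 0.731. Lcn2, at 369 and 236, and Pglyrp1, at 20.1 and 7.05, stood above all of these in both pools. The part of neutrophils in the Lcn2 and Pglyrp1 differences was not tested.

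Most measured secretory airway markers were lower, as Pigr, Lcn2 and Pglyrp1 were, but not all. Of 12 club cell genes, 11 were measured, 2 above 0 and 9 below, 5 of them at least 1.5-fold lower, and the summed FPKM was 12570 and 10608. The 2 above 0 were the abundant Cyp2f2, at 4694 and 5305 (ratio 1.13, 1.12 to 1.14), and Hp, at 400.3 and 410.5. Among the 9 below 0, Scgb3a1 had 477 and 121, and Scgb3a2 had 691 and 256. Scgb1a1, the defining club cell gene, is listed at 0 in both because its estimate failed. Of 10 mucous cell genes, 6 were measured, all below 0 and all at least 1.5-fold lower, and the summed FPKM was 58.2 and 25.4. Agr2 and Tff2 passed the filter only through the control pool. The median log2 difference of the mucous list was -1.27 with the filter and -0.77 without it. The gel-forming mucin Muc5b had 17.7 and 6.85, a ratio of 0.388 (0.370 to 0.406) whose interval overlaps those of Pigr, Pglyrp1 and Cd14. Tff2, a trefoil peptide of mucous cells, was listed at 0 in the pool labelled Mst1/2-deleted. Of 8 basal cell genes, 6 were measured, 1 above 0 and 5 below, 3 at least 1.5-fold lower and 1 higher, and the summed FPKM of 52.6 and 57.4 was mostly Icam1, which the basal list shares with the NF-kB list.
Alveolar and ciliated markers went the other way, as Igj did. Of 14 alveolar type 1 genes, 13 were measured, 12 above 0 and 1 below, 10 at least 1.5-fold higher, and the summed FPKM was 257 and 543. Ager had 32.9 and 107, and Hopx had 13.6 and 45.4. Of 14 alveolar type 2 genes, all were measured, 13 above 0 and 1 below, with 1 at least 1.5-fold higher and summed FPKM of 18326 and 22236. Of 10 ciliated cell genes, 8 were measured and all were above 0, 3 at least 1.5-fold higher, at sums of 36.2 and 58.9. Of these, Ak7, Dnali1, Fam183b and Ccdc39 passed the filter only through the pool labelled Mst1/2-deleted, so they could lie only above 0. Foxj1 passed it in both pools, at 2.41 and 3.38. Of 7 fibroblast genes, 4 were measured, all below 0, 2 at least 1.5-fold lower, at sums of 19.2 and 7.80. Among the alveolar type 1 genes counted as at least 1.5-fold higher, Rtkn2 passed the filter only through the pool labelled Mst1/2-deleted. Among the fibroblast genes, Mfap4, counted as at least 1.5-fold lower, and Col3a1 passed it only through the control pool. These 2 could therefore lie only below 0. The part of these cell types in the differences of the 6 genes was not tested.

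**Figure D4:**
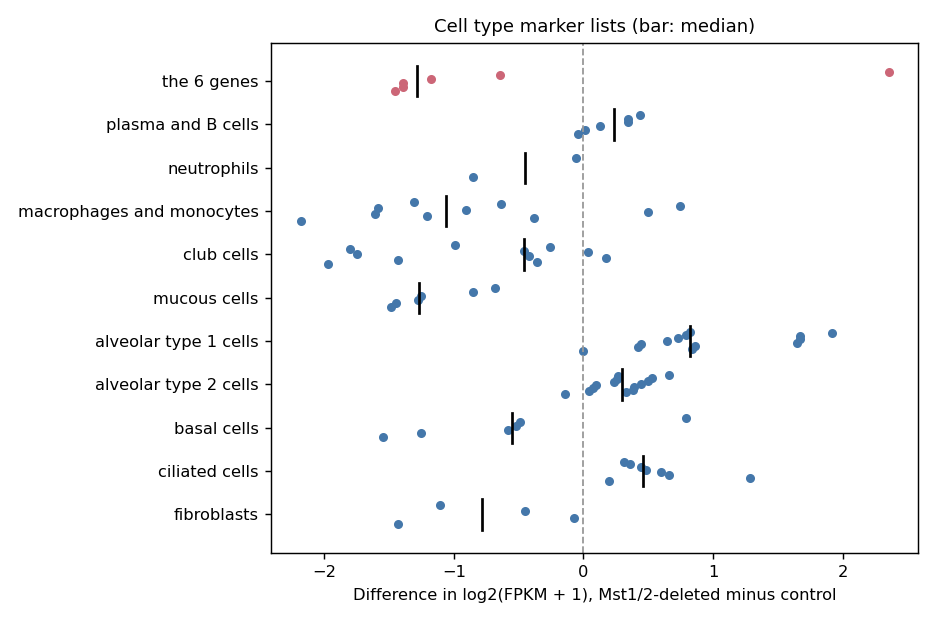
Difference in log2(FPKM + 1), Mst1/2-deleted minus control, of the 6 genes and of the measured markers of 10 cell types, with 1 point per gene and a bar at the median. Mucous cell markers lie below 0 like Pigr and Pglyrp1, and alveolar type 1 markers lie mostly above 0; the mucous median of -1.27 becomes -1.23 when Tff2, listed at 0, is set to a floor of 3 reads.

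Among all measured genes, the 6 lay near the edges of the distribution. The log2(FPKM + 1) differences were -1.45 for Saa3, -1.39 for both Pigr and Pglyrp1, -1.18 for Cd14, -0.64 for Lcn2 and 2.36 for Igj. A lower difference than that of Saa3 was found in 38 measured genes, than that of Pigr in 44, than that of Pglyrp1 in 45, than that of Cd14 in 71, and than that of Lcn2 in 214. Genes whose estimate failed were not left out of these ranks. Lcn2 differed least of the 6 and was by far the highest in level.

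**Figure D5:**
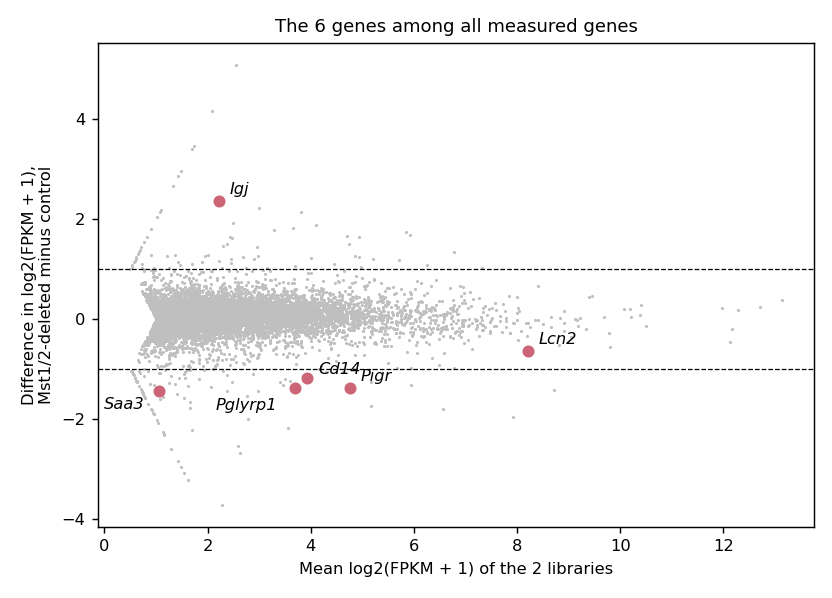
Difference in log2(FPKM + 1), Mst1/2-deleted minus control, against the mean log2(FPKM + 1) of the 2 libraries for 9945 measured genes (grey) and the 6 genes (coloured, named); dashed lines mark 2-fold. Pigr, Pglyrp1, Cd14 and Saa3 lie below the lower line, Lcn2 lies between the lines at -0.64, and Igj lies above the upper line.

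For each gene, the nearest other genes were taken by Euclidean distance of log2(FPKM + 1) over the 2 libraries, a likeness that rests on 2 values only. The nearest to Pigr was Reg3g, at a distance of 0.29, followed by the surface protein gene Ly6a at 0.30. The nearest to Pglyrp1 was Muc5b, at 0.18, and Pglyrp1 in turn was the second nearest to Cd14, at 0.35, after the secretory cell factor Creb3l1, also at 0.35. Acsf2 was the third nearest to Pigr and Magoh the third nearest to Cd14, while B430010I23Rik and Ugt1a6a came after Muc5b for Pglyrp1. Reg3g, Muc5b and Creb3l1 are in the club and mucous cell lists given above.
The genes nearest to Saa3 were the cytokine genes Ccl17, at 0.11, and Il1a, at 0.16, with Gm11428 between them at 0.15. Among those nearest to Lcn2 were Wfdc2, a secreted airway protein gene, at 0.32, and the ferritin chain gene Fth1, at 0.34. The gene nearest to Igj was Akap5, of the alveolar type 1 list, at FPKM of 1.88 and 9.88 and a distance of 0.48, with Adamtsl4 at 0.63 and Sphk1 at 0.64 after it. Igj had the most distant first neighbour of the 6.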

How the data were processed

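Values were made with TopHat, Cufflinks and build mm9, per the submitters' processing notes; versions, read length and strandedness were not given in the sources used here. Each table lists 28107 RefSeq transcripts with the authors' FPKM and coverage, a signal of mean read depth, per the file headers. FPKM was summed per gene symbol (Python 3.11.15, pandas 2.3.3, numpy 2.4.6), and a difference is log2(FPKM + 1) of the pool labelled Mst1/2-deleted minus that of the control pool. A gene counted as measured with FPKM of 1 or more in either library. List genes whose estimate failed were left out of the list counts, but counts over all measured genes kept such genes. Approximate reads are coverage times length over 47.1 bases, the median of low values from 25 to 75 bases; this size is an assumption. Clopper-Pearson 95% intervals (scipy 1.17.1) of read shares were divided by the depth ratio of 0.895. Starts are given from 1. With 1 library per genotype no test was run; the steps were tested on simulated data. Strand was not used, and antisense or copied genes may share reads; no other listed symbol overlaps the 6 loci. The genes and lists were chosen with earlier results of these data known. From each pathway list, the 4 measured genes with the largest absolute difference and the one with the highest mean FPKM were named. Others in those lists were named for their role, or because the filter fixed their direction, after their values were seen. For cell types, only some markers were named, beside counts over each list. The alternatives tried are given in the closing section.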

Additional observations from a re-analysis of the deposited data

How the results depend on the processing

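All 6 differences kept their direction under every alternative that gave a value. Over them, log2 differences ranged from -1.49 to -1.39 for Pigr, -0.71 to -0.58 for Lcn2, -1.54 to -1.33 for Pglyrp1, -1.30 to -1.18 for Cd14, -3.27 to -1.39 for Saa3 and 2.29 to 3.17 for Igj. The widest values of Saa3 and Igj came without a pseudocount. With a minimum FPKM of 5, Saa3 was not measured and 3 genes were at least 2-fold lower, and at 1.5-fold 5 were; otherwise the count was 4. Over all measured genes, the counts at least 2-fold lower and higher moved from 97 and 75 to 183 and 171 with a pseudocount of 0.1, 206 and 196 with none, 34 and 45 at a minimum FPKM of 5, 479 and 295 as TPM, a scale of larger values on which the pseudocount and filter weigh less, 60 and 48 with status OK and transcripts of at least 300 bases, and 258 and 300 at 1.5-fold. Centring within 10 bins of transcript length was chosen after seeing the data. No paired analysis was possible because each genotype has 1 library. For the same reason leaving out a replicate was not run. Depth limits Saa3 most, at about 3.22 reads in the pool labelled Mst1/2-deleted.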
